A study of Nicotiana tabacum with 16 samples.

Results

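The gene models described here are those whose RNA level was higher in every root library of the nic1 nic2 genotypes than in every library with both Nic loci intact. They were selected on these same values: CPM (each count scaled to its library's column total) were put on a log2(CPM + 1) scale. For each gene model the highest of the 9 K326 and myc2a libraries was subtracted from the lowest of the 7 nic1 nic2 and nic1 nic2 myc2a libraries. This difference is called the gap. Of 63697 gene models in the table, 33881 averaged 2 CPM or more over the 7 libraries and lay outside a pair of neighbourhoods left out by the rule (serial numbers 11900 to 13900 of ID group 7 and 29500 to 32500 of ID group 19). A positive gap was found for 139 of them, 0.410%, and the 100 largest gaps define the members. The separation of the 7 from the 9 libraries is therefore the selection itself and is given as a description.

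Roots of tobacco (Nicotiana tabacum) were compared between 4 nearly isogenic genotypes on the background of the flue-cured cultivar K326. They were the triple recessive nic1 nic2 myc2a (4 libraries), nic1 nic2 (3), myc2a (5) and K326 itself (4). All plants were grown in a greenhouse in soil pots dipping into water, all were topped (the flowering shoot tip was cut off), and roots were taken 18 h later. Nothing in the labels ties a library to its own plant. P-values therefore measure the spread between these libraries, which may in part be technical.

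Nicotine is made in tobacco roots and carried to the leaves, and topping stimulates its synthesis through jasmonate signalling. The Nic loci set the level of nicotine synthesis: genes for ERF transcription factors lie clustered at Nic2, and the recessive alleles at both loci give low-alkaloid plants. MYC2a is a bHLH transcription factor of the jasmonate response that acts on the same biosynthetic genes. The loss of such activators is known for lower RNA of nicotine genes, and the gene models considered here are those on the opposite, higher side. Each identifier consists of an ID group (the digits before g) and a serial number within it (the digits after g). No gene names are given, 0 identifiers matched the RefSeq table, and names, functions and sequences of the members are not analysed here.

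Total counts per library lay between 32167776 and 40858135, except for K326 replicate 2 with 71836276. The library nic1 nic2 replicate 3 had the fewest detected gene models (41283) and myc2a replicate 5 the next fewest (42797), against 43866 to 45675 in the others. In these bulk samples, fewer cells of a type and less RNA per cell cannot be told apart.

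The members were modest in size. Between the mean of the 7 libraries with nic1 nic2 and the mean of the 9 without, the ratio of CPM had a median of 1.49 and ran from 1.15 to 20.2. It was 2 or more for 11 members, from 1.5 to under 2 for 38 and under 1.5 for 51. The gaps were narrow too: 2 exceeded 0.5 on the log2 scale, 33 were 0.1 or more and 67 were under 0.1, with a median of 0.071. Mean levels in the 7 libraries ran from 2.94 to 224 CPM (median 20.1), and 98 members had counts in every library. Together the members took 3193 ± 212 CPM in nic1 nic2 myc2a (SD, n = 4), 3373 ± 429 in nic1 nic2 (n = 3), 2280 ± 166 in myc2a (n = 5) and 2272 ± 99.8 in K326 (n = 4).

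**Figure D1:**
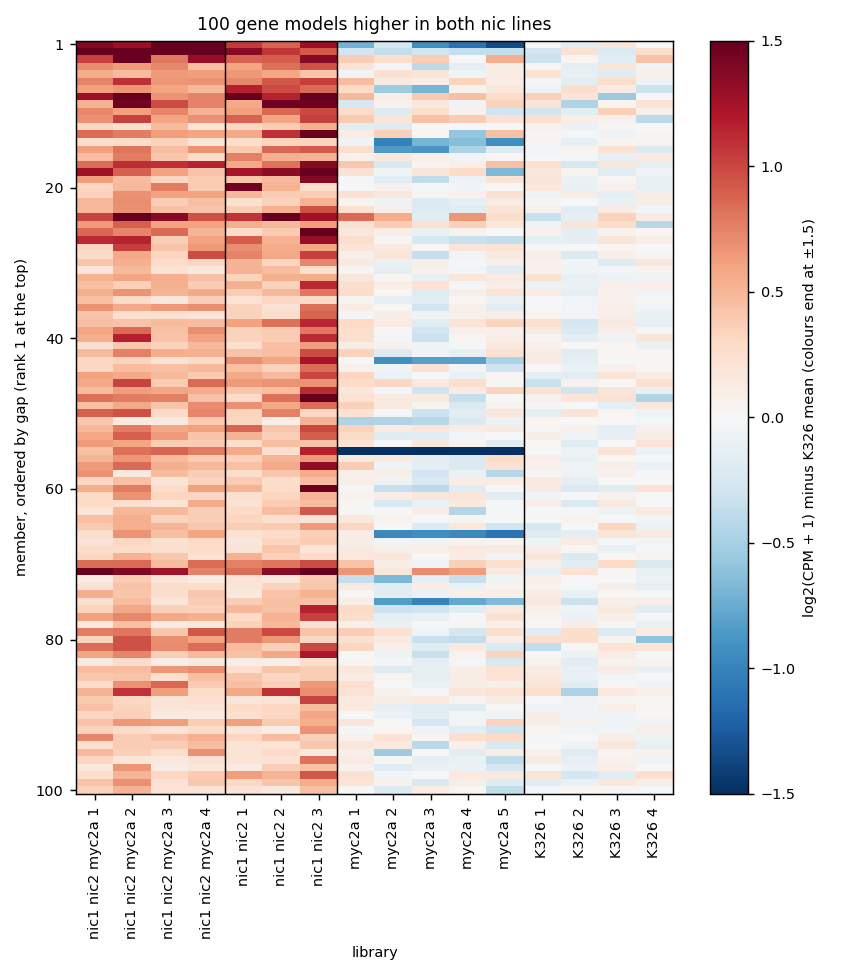
Each row is a member, ordered by gap with the largest at the top, and each column a library. Colour is log2(CPM + 1) minus the K326 mean, ending at ±1.5: the 7 columns with nic1 nic2 are red in all 100 rows. The darkest blue row in myc2a is Ntab08g028900-1.1 (no counts there), and the rows that are clearly blue in myc2a replicates 2 to 5 but not in replicate 1 belong to ID group 11.

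The clearest separation was in Ntab12g015190-1.1. It had 10.4, 9.70, 12.1 and 11.5 CPM in nic1 nic2 myc2a and 8.01, 7.04 and 9.54 CPM in nic1 nic2. In myc2a it had 1.66, 2.62, 1.30, 1.02 and 0.716 CPM, and in K326 3.31, 2.91, 3.91 and 3.33 CPM. The gap was 0.71, and the 5 myc2a libraries lay below all 4 K326 libraries as well. The mean was 1.46 ± 0.736 CPM in myc2a (SD, n = 5) against 3.36 ± 0.411 in K326 (n = 4). On the log2 scale that difference was -1.20 ± 0.28 (SE) and did not pass with adjustment over all gene models (edgeR adjusted p = 0.128, 0.00699 to 0.512 over 24 alternatives). It passed with DESeq2 (adjusted p = 0.00699) and without myc2a replicate 2 (edgeR adjusted p = 0.0181).

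Close to this member in the table lie gene models with the opposite pattern, which were chosen after their values were seen. Ntab12g015220-1.1 averaged 28.5 ± 13.2 CPM in nic1 nic2 myc2a and 24.6 ± 5.01 in nic1 nic2, against 116 ± 20.5 in myc2a and 215 ± 141 in K326 (SD, n = 4, 3, 5 and 4). Ntab12g015230-1.1 averaged 6.30 ± 5.79 and 6.12 ± 2.23 CPM in the same nic lines, against 59.7 ± 21.3 in myc2a and 204 ± 144 in K326. Their order over the 4 genotypes is thus the reverse of that of Ntab12g015190-1.1 for the nic lines against the others, while all of them had a lower mean in myc2a than in K326. Whether these neighbours are near-identical copies that share reads was not analysed here, so their counts are uncertain in that respect.

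The second largest gap, 0.66, was in Ntab01g007090-1.1, which was nearly without reads in myc2a and low in K326. It had 3.34, 4.88, 3.79 and 3.14 CPM in nic1 nic2 myc2a and 2.30, 1.69 and 1.43 CPM in nic1 nic2. In K326 it had 0.0537, 0.501, 0.111 and 0.538 CPM (2, 36, 4 and 22 counts), and in myc2a 2, 0, 2, 0 and 0 counts. It carries the highest ratio of means among the members, 20.2, which pools both genotypes with intact Nic loci. The ratio of nic1 nic2 to K326 alone was 6.00, and that of the triple recessive to myc2a rests on almost no counts in myc2a. The triple recessive libraries all lay above the nic1 nic2 libraries, but the log2 fold change between them, 1.10 ± 0.63 (SE), did not pass (edgeR adjusted p = 0.464). The interaction, the nic difference with myc2a minus that without it, was 4.80 ± 1.03 (log2, SE) and did not pass either (edgeR adjusted p = 0.0771, 0.00101 to 0.395 over 23 alternatives). It passed without K326 replicate 1 (edgeR adjusted p = 0.0295), without myc2a replicate 1 (0.0300) and with DESeq2 (0.00101). Against K326 alone, myc2a differed by -3.71 ± 0.79 (log2, SE, edgeR adjusted p = 0.0894, 0.00498 to 0.467 over 23 alternatives), which passed with DESeq2 (0.00498) and without myc2a replicate 1 (edgeR adjusted p = 0.0283). Fitted values against libraries at or near 0 counts depend on the prior count and give no size.

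**Figure D2:**
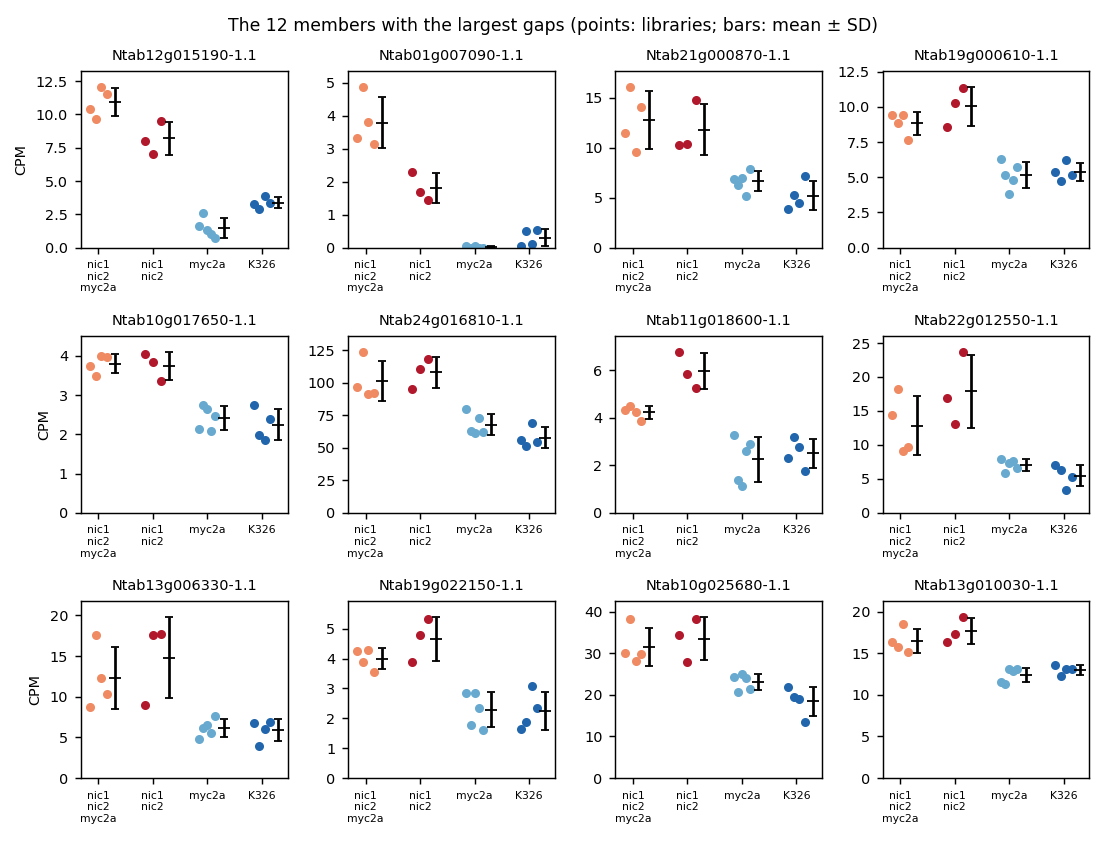
CPM of the 12 members with the largest gaps in each library (points, one per library) with mean ± SD beside them, by genotype, on axes that start at 0. Ntab12g015190-1.1 and Ntab01g007090-1.1 stand clear, and in the other 10 the lowest nic library and the highest of the other 9 come close.

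The gaps from the third place on were 0.25 or less. Ntab21g000870-1.1 had 11.5, 16.1, 9.54 and 14.1 CPM in nic1 nic2 myc2a, 10.3, 10.4 and 14.7 in nic1 nic2, 6.90, 6.30, 6.94, 5.14 and 7.88 in myc2a, and 3.90, 5.29, 4.49 and 7.20 in K326. Its lowest nic library and its highest other library, myc2a replicate 5, differed by less than the spread within either nic line. Ntab19g000610-1.1 averaged 8.84 ± 0.832 CPM in nic1 nic2 myc2a and 10.1 ± 1.38 in nic1 nic2, against 5.16 ± 0.948 in myc2a and 5.37 ± 0.624 in K326. Ntab10g017650-1.1 averaged 3.80 ± 0.242 and 3.75 ± 0.354 CPM in these nic lines, against 2.42 ± 0.298 in myc2a and 2.25 ± 0.402 in K326. In both of these members the means of myc2a and K326 were within 1 SD of each other.

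Ntab24g016810-1.1 was better covered, with 97.1, 124, 91.7 and 92.1 CPM in nic1 nic2 myc2a and 95.1, 110 and 119 in nic1 nic2. It had 79.6, 63.3, 61.4, 72.7 and 62.2 CPM in myc2a and 56.3, 51.2, 69.2 and 54.4 in K326. Its highest library without nic1 nic2 was myc2a replicate 1. Ntab11g018600-1.1 was higher in nic1 nic2 (5.95 ± 0.764 CPM) than in the other genotypes, with 4.22 ± 0.271 in nic1 nic2 myc2a, 2.26 ± 0.941 in myc2a and 2.50 ± 0.608 in K326. The 4 triple recessive and 3 nic1 nic2 libraries of this member did not overlap. Among all gene models kept by the rule, the share without overlap between these genotypes was 11.8%, and among the members it was 7 of 100.

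Ntab22g012550-1.1 and Ntab13g006330-1.1 spread widely within the nic lines. The first ranged over 9.12 to 18.2 CPM in nic1 nic2 myc2a and 13.1 to 23.7 in nic1 nic2, with means of 7.06 ± 0.850 in myc2a and 5.49 ± 1.61 in K326. The second ranged over 8.76 to 17.5 CPM and 9.04 to 17.7 CPM in the same nic lines, with means of 6.12 ± 1.08 in myc2a and 5.90 ± 1.34 in K326. In each of them the highest and the lowest nic library differed by more than the lowest nic library and the K326 mean. The remaining members of the first 12, Ntab19g022150-1.1, Ntab10g025680-1.1 and Ntab13g010030-1.1, had ratios of means of 1.89, 1.54 and 1.34. Ntab13g010030-1.1 was among the most even, with 15.1 to 18.5 CPM in nic1 nic2 myc2a and 16.3 to 19.3 in nic1 nic2, against 11.3 to 13.1 in myc2a and 12.2 to 13.6 in K326.

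Members with a ratio of 2 or more but a narrow gap lay further down. Ntab03g029380-1.1 had 2.56, 2.32, 2.02 and 1.13 CPM in nic1 nic2 myc2a and 1.27, 2.23 and 10.2 in nic1 nic2. It had 1.00, 0.429, 1.06, 0.960 and 0.386 CPM in myc2a and 0.161, 0.473, 0.277 and 0.171 in K326. Its value in nic1 nic2 replicate 3 was several times that of any other library, and its coefficient of variation (SD over mean) over the 7 libraries, 102%, was the largest among the members. The next were those of Ntab19g003830-1.1 (43.0%), which was also highest in nic1 nic2 replicate 3, at 10.9 CPM, and of Ntab01g007090-1.1 (41.5%). For Ntab03g029380-1.1 the difference between myc2a and K326 was 1.44 ± 0.58 (log2, SE) and did not pass (edgeR adjusted p = 0.823, 0.439 to 1 over 24 alternatives).

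Ntab20g018770-1.1 had 21.6, 16.4, 13.2 and 11.5 CPM in nic1 nic2 myc2a and 20.9, 22.7 and 27.2 in nic1 nic2, against 8.54 ± 2.27 in myc2a and 8.36 ± 0.909 in K326. It is one of 3 members with an unadjusted p under 0.05 between the nic lines, at -0.55 ± 0.24 (log2, SE, edgeR adjusted p = 0.343). Ntab15g021270-1.1 and Ntab07g014500-1.1, named after their values were seen, had ratios of 2.16 and 2.21. Ntab07g014500-1.1 has a serial number 600 above the neighbourhood of ID group 7 that the rule left out, and is the member closest to either neighbourhood.

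At the other end of the spread, Ntab11g015100-1.1, Ntab01g002330-1.1 and Ntab20g008770-1.1 had the smallest coefficients of variation in the nic lines, at 4.10, 4.93 and 5.40%. Ntab20g008770-1.1 averaged 35.9 ± 0.489 CPM in nic1 nic2 myc2a and 36.1 ± 3.30 in nic1 nic2, against 32.2 ± 0.695 in myc2a and 29.7 ± 1.95 in K326. Since the rule ranks by the gap, members of low spread entered with small differences. The members that took the largest shares of the counts had small differences too. Ntab23g000920-1.1 averaged 226 ± 18.8 and 220 ± 8.12 CPM in the triple recessive and in nic1 nic2, against 173 ± 11.3 in myc2a and 181 ± 6.02 in K326. Ntab01g003080-1.1 averaged 127 ± 7.10 and 127 ± 8.44 CPM in those nic lines, against 108 ± 7.89 in myc2a and 114 ± 8.49 in K326, a ratio of 1.15. Ntab17g024630-1.1, Ntab19g012240-1.1 and Ntab16g023440-1.1 had ratios of 1.36, 1.38 and 1.27.

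The limit of 100 members cut through a continuous series of gaps. The 5 smallest gaps inside were 0.026 in Ntab06g002000-1.1 and Ntab22g028760-1.1, 0.023 in Ntab19g012240-1.1, and 0.022 in Ntab17g024630-1.1 and Ntab11g010680-1.1. The next outside were Ntab01g009060-1.1 with 0.022, Ntab23g008760-1.1 with 0.021, and Ntab15g016790-1.1, Ntab01g022900-1.1 and Ntab09g011880-1.1 with 0.020. In Ntab11g010680-1.1 the lowest nic library had 19.4 CPM and the highest other library 19.1 CPM. In Ntab01g009060-1.1, the first outside, these values were 9.61 and 9.45 CPM.

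The gap is set by the lowest of the 7 libraries and the highest of the 9. The lowest of the 7 was nic1 nic2 myc2a replicate 3 for 24 members (12.3% of all kept), replicate 4 for 17 (17.8%) and replicate 1 for 10 (12.1%). It was nic1 nic2 replicate 1 for 27 (13.2% of all kept) and replicate 2 for 13 (12.0%). The other libraries of these genotypes, nic1 nic2 myc2a replicate 2 and nic1 nic2 replicate 3, were lowest for 2 and 7 members (9.12 and 23.4% of all kept). On the other side, myc2a replicate 1 was the highest of the 9 libraries for 37 members (17.0% of all kept) and myc2a replicate 5 for 17 (32.6% of all kept). The top of the nic libraries, which the gap does not use directly, was nic1 nic2 replicate 3 for 50 members (33.5% of all kept). It was nic1 nic2 myc2a replicate 2 for 29 (9.85% of all kept). The median member in nic1 nic2 replicate 3 was 1.20 times the mean of replicates 1 and 2, against 1.05 times over all gene models kept. The rule disfavours gene models in which a nic library is low. The shares on top and this ratio are therefore not independent of the selection. Without nic1 nic2 replicate 3 the median ratio of nic1 nic2 to K326 was 1.37, and with it 1.53.

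Per library, the median of the members relative to the K326 mean of each was 0.47, 0.62, 0.45 and 0.45 on the log2 scale in nic1 nic2 myc2a and 0.42, 0.45 and 0.70 in nic1 nic2. It ran from -0.10 to 0.16 in myc2a and from -0.075 to 0.048 in K326. All gene models kept by the rule also had medians slightly above K326 in the nic lines, 0.047 to 0.061 in nic1 nic2 myc2a and 0.038 to 0.13 in nic1 nic2, and 0.10 in myc2a replicate 5. These gene models passed their minimum of 2 CPM on the 7 libraries with nic1 nic2, which favours those higher there. Many of the gaps were no larger than the shifts between libraries in these medians. Library sizes were also scaled by TMM, the trimmed mean of M values, which is meant to take out such shifts. On that scale 84 gene models had a positive gap and 63 of the 100 members were among them. The members ranked 1 to 12 all kept a positive gap there, and the first to lose it was the one ranked 20, Ntab04g013050-1.1.

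**Figure D3:**
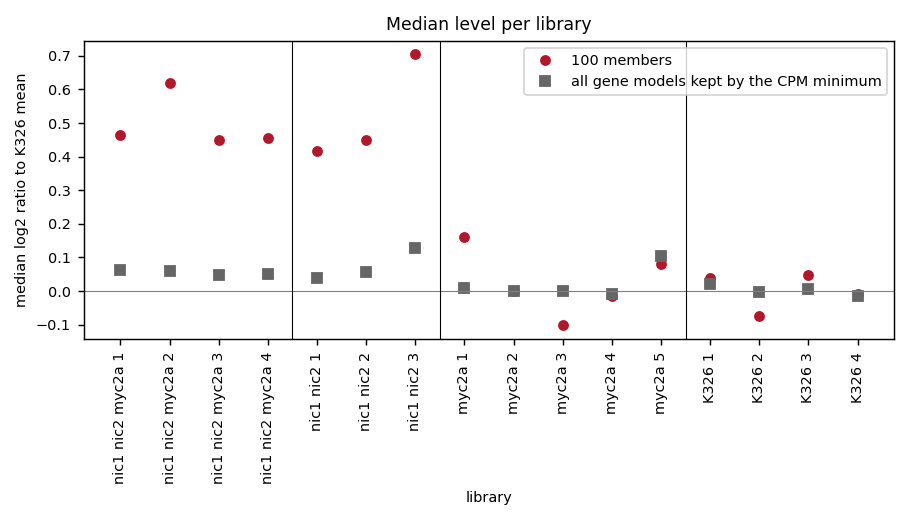
For each library, median of log2(CPM + 1) minus the K326 mean over the 100 members (circles) and over all gene models kept (squares). The minimum of 2 CPM for keeping was set on the 7 libraries with nic1 nic2. The members lie between 0.42 and 0.70 in the 7 libraries with nic1 nic2 and between -0.10 and 0.16 in the other 9, and the squares of the nic libraries lie a little above 0.

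The difference between nic and intact Nic loci can be read separately with and without myc2a, in comparisons that share no library. All 100 members were tested among 43009 gene models in one edgeR model. Against K326, nic1 nic2 had a median log2 fold change of 0.53 over the members (0.07 to 3.89) and of -0.0026 over all gene models tested. Against myc2a, nic1 nic2 myc2a had a median of 0.51 over the members (0.13 to 11.2, the highest being a fitted value against libraries without counts) and of -0.0036 over all. At an edgeR adjusted p of 0.05, 17 members were called higher in nic1 nic2 than in K326, with 0.339% of all gene models called higher and 0.918% called in either direction. Against myc2a, 14 members were called higher in nic1 nic2 myc2a, with 0.184% of all called higher and 0.358% in either direction. Both comparisons were part of the selection, so these counts carry no evidence of their own. The 2 members called in both, Ntab19g000610-1.1 and, named after its values were seen, Ntab00g005470-1.1, are among 5 gene models of the whole table called higher in both. The counts leaned on single libraries, and so did those over the whole table. Without nic1 nic2 replicate 3, 4 members were called higher in nic1 nic2 than in K326. Of all gene models, 0.0711% were then called higher and 0.397% in either direction (173 of 43606). Without myc2a replicate 1, 40 members were called higher in nic1 nic2 myc2a than in myc2a. Of all gene models, 1.64% were then called higher and 2.64% in either direction (1132 of 42949).

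The selection did not fix the direction of differences within the 7 or within the 9 libraries, although it favours gene models that vary little there. Between nic1 nic2 myc2a and nic1 nic2, 0 of the 100 members were called by edgeR, DESeq2 or limma-voom, with 0.405% of all gene models called by edgeR (0.307% higher and 0.0977% lower). An unadjusted edgeR p under 0.05 was found for 3 members, against 13.2% of all gene models. The members' log2 fold changes had a median of -0.0084 (-1.11 to 1.10), against -0.0060 over all gene models, and were positive for 48 and negative for 52. Apart from Ntab20g018770-1.1, the members at an unadjusted p under 0.05 were Ntab19g027520-1.1 and Ntab11g016450-1.1. Ntab19g027520-1.1 averaged 42.4 ± 0.677 CPM in nic1 nic2 myc2a and 57.1 ± 11.0 in nic1 nic2 (log2 fold change -0.38 ± 0.14 SE, edgeR adjusted p = 0.281). For Ntab11g016450-1.1 it was -0.57 ± 0.22 (log2, SE, edgeR adjusted p = 0.290). These 3 were named after their values were seen. These misses do not show that the levels were equal.

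Between myc2a and K326 the members' median log2 fold change was 0.013, against 0.0045 over all gene models tested, with 51 positive and 49 negative. Of the 100 members, 1 was called, and it was lower in myc2a, with 0.170% of all gene models called (0.0326% higher and 0.137% lower). An unadjusted p under 0.05 was found for 11 members, against 5.21% of all gene models, and 9 of these 11 were lower in myc2a. The libraries of both genotypes did not overlap for 6 members, against 2.40% of the gene models kept by the rule.

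The member called was Ntab08g028900-1.1. It had 6.08, 8.22, 8.54 and 7.95 CPM in nic1 nic2 myc2a, 6.71, 5.21 and 10.6 in nic1 nic2, and 4.11, 3.93, 4.93 and 3.89 in K326, but no counts in any of the 5 myc2a libraries. With 3 counts per library taken as the floor, it was at least 53.0-fold lower in myc2a than in K326 (edgeR adjusted p = 6.49e-08, 1.29e-21 to 7.03e-04 over 24 alternatives) and at least 96.7-fold higher in nic1 nic2 myc2a than in myc2a. Against K326, the higher of the genotypes with intact Nic loci, the gap was 0.066. It was also the only member with a called interaction (edgeR adjusted p = 4.90e-07, 2.12e-20 to 5.24e-04 over 23 alternatives), with 0.235% of all gene models called (0.195% positive and 0.0395% negative). The triple recessive libraries carry myc2a as well and had counts. An effect of myc2a on the intact Nic background and a difference private to the myc2a line cannot be told apart.

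Members of ID group 11 accounted for 4 of the 9 lower values in myc2a at an unadjusted p under 0.05. This group held 8 members, 0.585% of its 1367 gene models kept, against 100 members among 33881 kept over all ID groups. Those with serial numbers 4980 and 10680 were at 104 and 93.2% of the K326 mean in myc2a replicates 2 to 5. Of the other 6, between serial numbers 15100 and 20400, 5 were at 47.2 to 62.5% of K326 in myc2a replicates 2 to 5, but at 96.2 to 122% in myc2a replicate 1. The remaining one, Ntab11g018600-1.1, did not stand apart: its mean over replicates 2 to 5 was 80.0% of K326, but replicates 4 and 5 were above the K326 mean. Ntab11g020400-1.1 shows the split most sharply, with 8.14, 8.42, 8.13 and 7.27 CPM in myc2a replicates 2 to 5 and 18.3 CPM in replicate 1, against 16.9 ± 2.31 in K326 (SD, n = 4). Ntab11g015100-1.1 had 21.6 CPM in myc2a replicate 1 and 12.3 ± 1.62 in replicates 2 to 5 (SD, n = 4), against 22.4 ± 1.30 in K326.

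This split was shared by the whole stretch of the table and was no property of the members. The 252 non-members kept between the same serial numbers had a median of 52.1% of K326 in myc2a replicates 2 to 5 and of 97.3% in replicate 1, and 98.4% of them had a lower mean in myc2a than in K326. For the 1107 non-members of ID group 11 outside the stretch the medians were 92.4 and 97.6%, and for the 32421 of the other ID groups the median in replicates 2 to 5 was 102%. All 12 gene models closest to Ntab11g018600-1.1 in the table had a lower mean in myc2a than in K326. The 5 myc2a libraries are thus not alike in this stretch, and replicate 1 stands with K326.

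Without myc2a replicate 1, 6 members were called in myc2a against K326, with 1.01% of all gene models called (434 of 42949, against 73 with it). In the interaction 5 members were called, with 0.801% of all called (344, against 101 with it). Named after their values were seen, apart from the first, those called in myc2a against K326 included Ntab11g015100-1.1 (edgeR adjusted p = 3.32e-04), Ntab11g016450-1.1 (0.00350), Ntab11g019370-1.1 (5.56e-04) and Ntab11g020400-1.1 (1.94e-04).

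**Figure D4:**
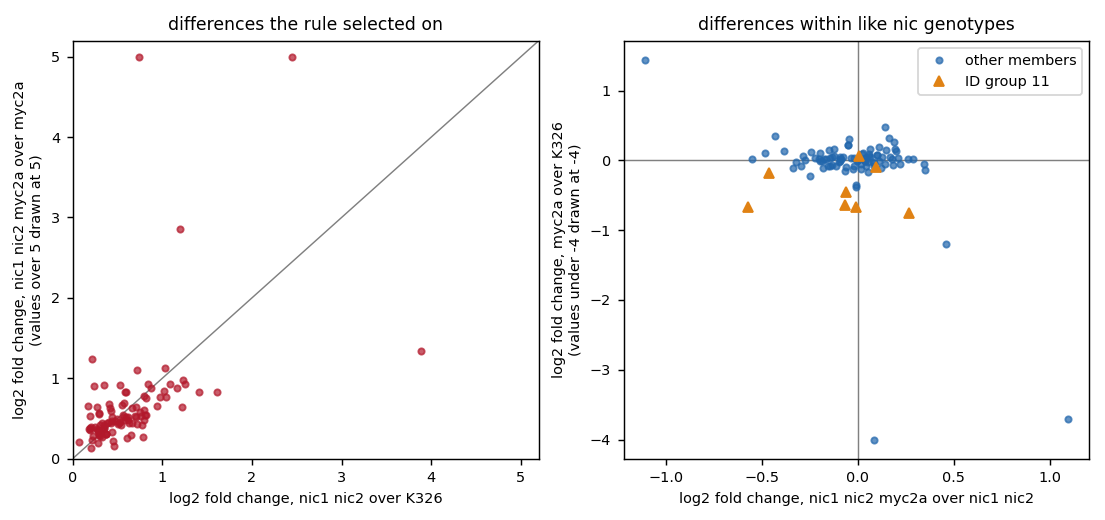
Fitted log2 fold changes of the 100 members, one point each. Left, nic1 nic2 over K326 against nic1 nic2 myc2a over myc2a, the comparisons used by the selection, with the line of equality and values over 5 drawn at 5 (Ntab08g028900-1.1 and Ntab01g007090-1.1). Right, nic1 nic2 myc2a over nic1 nic2 against myc2a over K326, where most members cluster around 0, 5 members of ID group 11 (triangles) lie lower, and Ntab08g028900-1.1, without counts in myc2a, is drawn at -4.

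In the interaction, the median over the members was -0.021 on the log2 scale, against 0.0020 over all gene models tested, and 8 members had an unadjusted p under 0.05, against 9.86% of all. Besides Ntab08g028900-1.1 and Ntab01g007090-1.1, the largest in size was that of Ntab03g029380-1.1, -2.55 ± 0.83 (SE, edgeR adjusted p = 0.365), the member with the single high library. For Ntab12g015190-1.1 it was 1.66 ± 0.41 (edgeR adjusted p = 0.174, 0.0159 to 0.404 over 23 alternatives). It passed with DESeq2 (adjusted p = 0.0159) and without myc2a replicate 2 (edgeR adjusted p = 0.0168).

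The members were spread over the table, though not evenly. They fell in 24 of the 25 ID groups, the exception being ID group 9 with 0 of 1170 gene models kept. The share of gene models kept that were members ran up to 0.837% (2 of 239, in ID group 0), against 100 of 33881 over all ID groups. Within ID group 11, 6 members lay between serial numbers 15100 and 20400, beside 252 non-members kept, which is denser than the whole table. Most myc2a libraries were low in that stretch, so fewer libraries could set the highest value there. Whether this let more gene models pass the rule was not tested. Only 3 pairs of members had serial numbers within 100 of each other. Ntab06g019510-1.1 and Ntab06g019520-1.1 are adjacent: the first averaged 8.24 ± 0.592 CPM in nic1 nic2 myc2a and 9.53 ± 2.13 in nic1 nic2, against 5.65 ± 0.821 in myc2a and 5.50 ± 0.798 in K326. The second averaged 20.3 ± 2.98 and 19.8 ± 4.20 CPM in these nic lines, against 12.5 ± 1.88 in myc2a and 12.7 ± 1.02 in K326. The other pairs were Ntab03g024840-1.1 with Ntab03g024920-1.1 and Ntab20g018670-1.1 with Ntab20g018770-1.1.

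The gene models kept that stand next to a member in the table, 198 that were not members themselves, had a positive gap in 1 case. Their mean log2 level was higher in the nic lines than in the other lines for 66.7% of them, with a median difference of 0.11. Over all gene models kept that were not members these values were 58.4% and 0.046, and over the members the median difference was 0.53. The neighbourhoods that the rule leaves out were denser, with 7 positive gaps among 287 gene models kept (2.44%). Among these was Ntab19g031540-1.1 with 2.71, a larger gap than that of any member.

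The mirrored rule, for gene models lower in every nic library, kept 33807 gene models and gave 41 positive gaps (0.121%). Both counts depended on the scaling and on single libraries: on TMM-scaled CPM there were 61 lower and 84 higher, and without myc2a replicate 1 or nic1 nic2 myc2a replicate 3 there were 110 and 100 lower. The gaps of the 41 were wider than those of the members, with a median of 0.45 and a maximum of 3.58, and 20 of them exceeded 0.5 on the log2 scale against 2 of the members. Their ratio of means, nic lines over the others, had a median of 0.227, and 27 of the 41 were at 0.5 or less. In myc2a against K326 their median fitted log2 fold change was -0.70, against 0.013 for the members, and the difference between these lists was not tested. K326 replicate 2 carried much of this: it was the highest of the 9 libraries for 29 of the 41. Relative to the K326 mean, its median over the list was 0.89 on the log2 scale, against -0.12, -0.16 and -0.44 in K326 replicates 1, 3 and 4. On the log2(CPM + 1) scale the median of myc2a minus K326 was -0.59 with all libraries and, in an alternative chosen after seeing the data, -0.30 without K326 replicate 2, with 33 and 32 of the 41 negative.

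**Figure D5:**
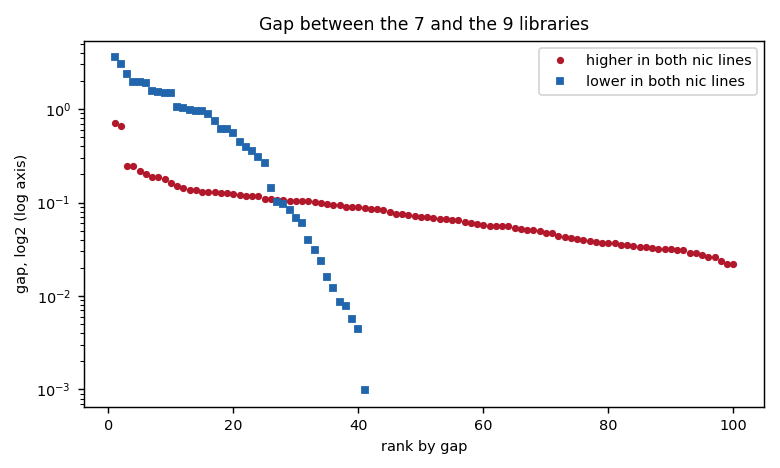
Gap between the 7 libraries with nic1 nic2 and the 9 without, on a log axis, by rank, for the 100 members (circles) and for the 41 gene models lower in both nic lines (squares). The members start at 0.71 and end at 0.022, and the squares start at 3.58.

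Within genotypes the members tended to vary together. For deviations of log2(CPM + 1) from the genotype means over 16 libraries, the median Pearson r between pairs of members was 0.26, and 0.19 without nic1 nic2 replicate 3. For pairs among every 20th gene model kept (1695 in all) it was 0.015. All of these values share libraries and their scaling, so they are a description of these libraries. The members were also selected on these values, which disfavours a low nic library or a high library without nic1 nic2. Their higher r may therefore come in part from the selection, which was not tested.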

How the data were processed

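Root RNA was sequenced in 16 libraries from the 4 genotypes. The authors deposited raw counts per gene model and library. The tools named, per the submitters' processing notes, are HISAT2 2.1.0, FastQC, bedtools and SAMtools. The build, annotation and counting settings are not given in the sources used here. Per the labels' protocols, libraries came from a directional kit. Between 59.7 and 65.6% of counts from 1 to under 200 were even, so each read of a pair was probably counted by itself, and counts overstate the number of fragments. Triple recessive columns were matched to titles by genotype letters and number, and 0 columns were unused.

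CPM were computed on column totals. Tests used R 4.3.3 and edgeR 4.0.16: filterByExpr defaults (43009 gene models), TMM scaling, and the quasi-likelihood test, fitted on all 16 libraries with a mean for each genotype. P-values were adjusted by Benjamini-Hochberg over all gene models, with a threshold of 0.05. Alternatives used DESeq2 1.42.0, limma 3.58.1, other scalings, no low-count filter, a replicate block and left-out libraries. Results were recomputed for each, and intervals of precision come from the spread between libraries. Each SE is the absolute log2 fold change divided by the square root of the quasi-likelihood F statistic. It is therefore approximate, and for members near 0 counts it gives no precision of the fold change. The edgeR procedure was tested on simulated counts, with changes larger than those of most members placed in nic1 nic2 alone. The simulation held no library standing apart from its genotype, so it does not cover the dependence on single libraries seen here.

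The members, comparisons and rules were chosen with earlier results of these data known. Named members have the 12 largest or 5 smallest gaps, the 5 highest levels, extreme coefficients of variation (3 each way), a call in a comparison the selection does not fix, or another member within 100 serial numbers. Any others were named after their values were seen.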

Additional observations from a re-analysis of the deposited data

Results flagged for a closer look

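Over 40 named members, 120 groups of 4 or 5 libraries were examined for a library far from the others, measured as its distance to the nearest library as a share of the range on the log2(CPM + 1) scale. Chance gives such a flag in about 1 of 20 groups, and 6 were found. In K326, replicate 2 was lowest, with a share of 0.954 in Ntab01g003080-1.1 (101 CPM), 0.901 in Ntab11g015100-1.1 (20.5 CPM) and 0.884 in Ntab11g019370-1.1 (15.8 CPM). This is the library with 71836276 counts. In nic1 nic2 myc2a, replicate 2 was highest in Ntab22g028760-1.1 (30.4 CPM, share 0.911) and replicate 3 lowest in Ntab20g008770-1.1 (35.2 CPM, share 0.877). In myc2a, replicate 1 was highest in Ntab11g020400-1.1 (18.3 CPM, share 0.847), where replicates 2 to 5 were low together. The nic difference of Ntab08g028900-1.1 was not the same with and without myc2a (interaction, edgeR adjusted p = 4.90e-07). This rests on the absence of counts in the myc2a line, while the triple recessive, which carries myc2a as well, had counts. An effect of myc2a and a difference private to the myc2a line cannot be told apart.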

How the results depend on the processing

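The selection depended on the scaling: with CPM on TMM-scaled library sizes, 84 gene models had a positive gap and 63 members were shared. Leaving out one library each gave 146 to 322 positive gaps and 46 to 96 shared members, with 237 and 58 when nic1 nic2 myc2a replicate 3 was left out, 237 and 65 for nic1 nic2 replicate 1, 314 and 49 for myc2a replicate 1 and 322 and 46 for myc2a replicate 5. By construction a left-out library can only keep or widen a gap, apart from the CPM minimum. Other alternatives of the rule moved neither value by over 1.5 times.

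Members called in nic1 nic2 against K326, all of them higher, numbered 17, with 146 of 43009 gene models called higher. The count was 27 with library size only (269 over all gene models), 55 with DESeq2 (894) and 6 with only the groups compared (105). It was 6 with the replicate block (67) and 1 with nic1 nic2 replicate 3 and K326 replicate 2 both left out (11). With one library left out it was 4 to 23. It was 4 without nic1 nic2 replicate 3 (31), 7 without nic1 nic2 replicate 2 (50) and 6 to 9 without any one K326 library (32 to 54). In nic1 nic2 myc2a against myc2a the members called, again all higher, numbered 14, with 79 over all gene models. The count was 43 with DESeq2 (398), 4 with only the groups compared (30) and 3 with the replicate block (33). With one library left out it was 3 to 40. It was 40 without myc2a replicate 1 (705) and 24 without nic1 nic2 replicate 3 (109). It was 3 to 9 without any other one library (30 to 68), except for nic1 nic2 myc2a replicate 3. In myc2a against K326 the count was 1, with 73 gene models called over all in either direction, and 4 with DESeq2 (247). With one library left out it was 1 to 6: 6 without myc2a replicate 1 (434) and 2 without myc2a replicate 2 (31). In the interaction it was 1, with 101 called over all in either direction, and 3 with DESeq2 (311). With one library left out it was 1 to 5. It was 5 without myc2a replicate 1 (344), 2 without myc2a replicate 2 (85) and 2 without K326 replicate 1 (86). Between the nic lines it was 0 in each alternative run. The cause of these moves was not tested. Over all gene models, calls ranged from 119 to 2006 (395 as reported), 70 to 1132 (154), 19 to 434 (73), 68 to 649 (174) and 53 to 344 (101), in the order of nic1 nic2 to K326, of the triple recessive to myc2a, of myc2a to K326, of the triple recessive to nic1 nic2, and of the interaction.

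Of 21 same-numbered pairs of libraries, 8 had a correlation of deviations over 0.1 (-0.31 to 0.35). Pairs with different numbers were not examined, so these values cannot decide whether replicate numbers pair the libraries. The lost calls under the block do not show a weaker effect, and their cause was not tested. Low-count members such as Ntab01g007090-1.1 are limited by depth.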
